A study of Mus musculus with 40 samples.

Results

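The genes described here encode the proteins of the mitochondrial ribosome. They were taken as every probe set annotated to a single gene whose symbol starts with Mrpl or Mrps and a digit. Mrpl40 was kept apart, because it lies inside the deletion that the mice carry. The rule gave 155 of the 45101 probe sets, for 75 genes out of 18193 named on the array. By symbol, 46 genes belong to the large subunit and 29 to the small subunit. Mrpl30 and Mrpl53 are not among them, since their probe sets match more than 1 gene.

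The mitochondrial ribosome translates the few messages encoded in mitochondrial DNA, all of them for subunits of the respiratory chain and the ATP synthase. Its RNAs come from the mitochondrial genome, but every one of its proteins is encoded in the nucleus, made in the cytosol and imported. The small subunit binds the message and reads its codons, and the large subunit joins the amino acids and holds the tunnel through which the new protein leaves. Many of its proteins have a counterpart in bacteria, and others exist only in mitochondria. Brain tissue depends heavily on oxidative phosphorylation.

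Male C57BL/6 littermates 8 weeks old were compared. Mutants of the line Df(16)A/+ lack a stretch of chromosome 16 on 1 of the homologues, a model of the human 22q11.2 deletion, and their wild-type littermates carry both copies. Expression arrays (Affymetrix Mouse430_2) were run on RNA of the prefrontal cortex and of the hippocampus, 10 for each genotype in each region, which makes 40. All values are log2 GCRMA signals, so a difference of -1 is a halving, and each group mean rests on n = 10 arrays. These are whole tissues, in which fewer cells of a type and less RNA per cell cannot be told apart.

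All 75 genes had at least 1 probe set above 4 (log2) in 10 or more arrays of each region, and with several the one with the highest mean was used. Hybridization run (arrays grouped here by their hybridization times), chip lot and genotype were not balanced. In the prefrontal cortex 7 wild-type and 5 Df(16)A/+ arrays shared run 4, while run 5 held 4 Df(16)A/+ arrays only and lot 2 held 6 wild-type arrays only. In the hippocampus run 2 held 9 wild-type but 2 Df(16)A/+ arrays, and run 3 held 8 Df(16)A/+ arrays only. The mean over 5 neuron markers lay between 13.2 and 13.4 in every prefrontal array, and none of the 5 was called. In each of 5 other lists 1 marker was called there: the astrocyte glutamate transporter Slc1a3 was higher (0.24), and Cnp of oligodendrocytes (-0.17), C1qa of microglia (-0.29), Slco1a4 of endothelium (-0.58) and Tle4 of deep cortical layers (-0.47) were lower. The mean oligodendrocyte marker signal was 11.42 (11.30 to 11.62) in wild type and 11.27 (11.04 to 11.50) in Df(16)A/+ arrays, and that of the 2 measured endothelium markers 7.59 (7.25 to 8.05) and 7.22 (6.75 to 8.06). The mean cortex marker signal was 10.1 (9.98 to 10.2) in wild type and 9.89 (9.76 to 10.1) in Df(16)A/+ arrays. Of the 5 astrocyte markers 2 lay below 0 and 3 above. Every measured marker of the oligodendrocyte, microglia, endothelium and cortex lists lay below 0. The part of these differences in the results below was not tested.

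Mrpl40, a large-subunit protein found only in mitochondria, was the reference for the comparison. The gene lies at chr16:18872018-18876637 (GRCm38.p6). Its prefrontal signal was 8.42 at the lowest, 8.68 at the median and 8.81 at the highest in wild type, and 6.91, 7.26 and 7.38 in Df(16)A/+ mice. The genotypes did not overlap. The log2 difference was -1.45 (95% interval -1.58 to -1.33; limma, adjusted p = 4.6e-13), which left 36.6% of the wild-type signal. In the hippocampus the signal was 8.12, 8.27 and 8.58 in wild type and 6.81, 7.08 and 7.39 in Df(16)A/+ mice, again without overlap. The difference there was -1.25 (-1.40 to -1.09; adjusted p = 4.1e-10), or 42.1% of wild type. Both intervals lie below -1.

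The question was whether the transcripts of the other proteins of the same particle follow that of Mrpl40 down. Protein was not measured. In the prefrontal cortex most were lower by a small amount and none came near a halving. Of 75 genes 40 were lower and 0 higher at an adjusted p under 0.05, where 15.6% of all 10991 genes tested were lower and 3.25% higher. The median member had a log2 difference of -0.14, or 90.8% of wild type, beside a median of -0.04 over all genes. In all, 69 of 75 differences lay below 0, and 17 of the 95% intervals included 0. The 95% interval of every one of the 75 genes excluded -1, as did that of 10955 of all 10991 genes. The widest reach downward was that of Mrpl55, to -0.73.

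**Figure D1:**
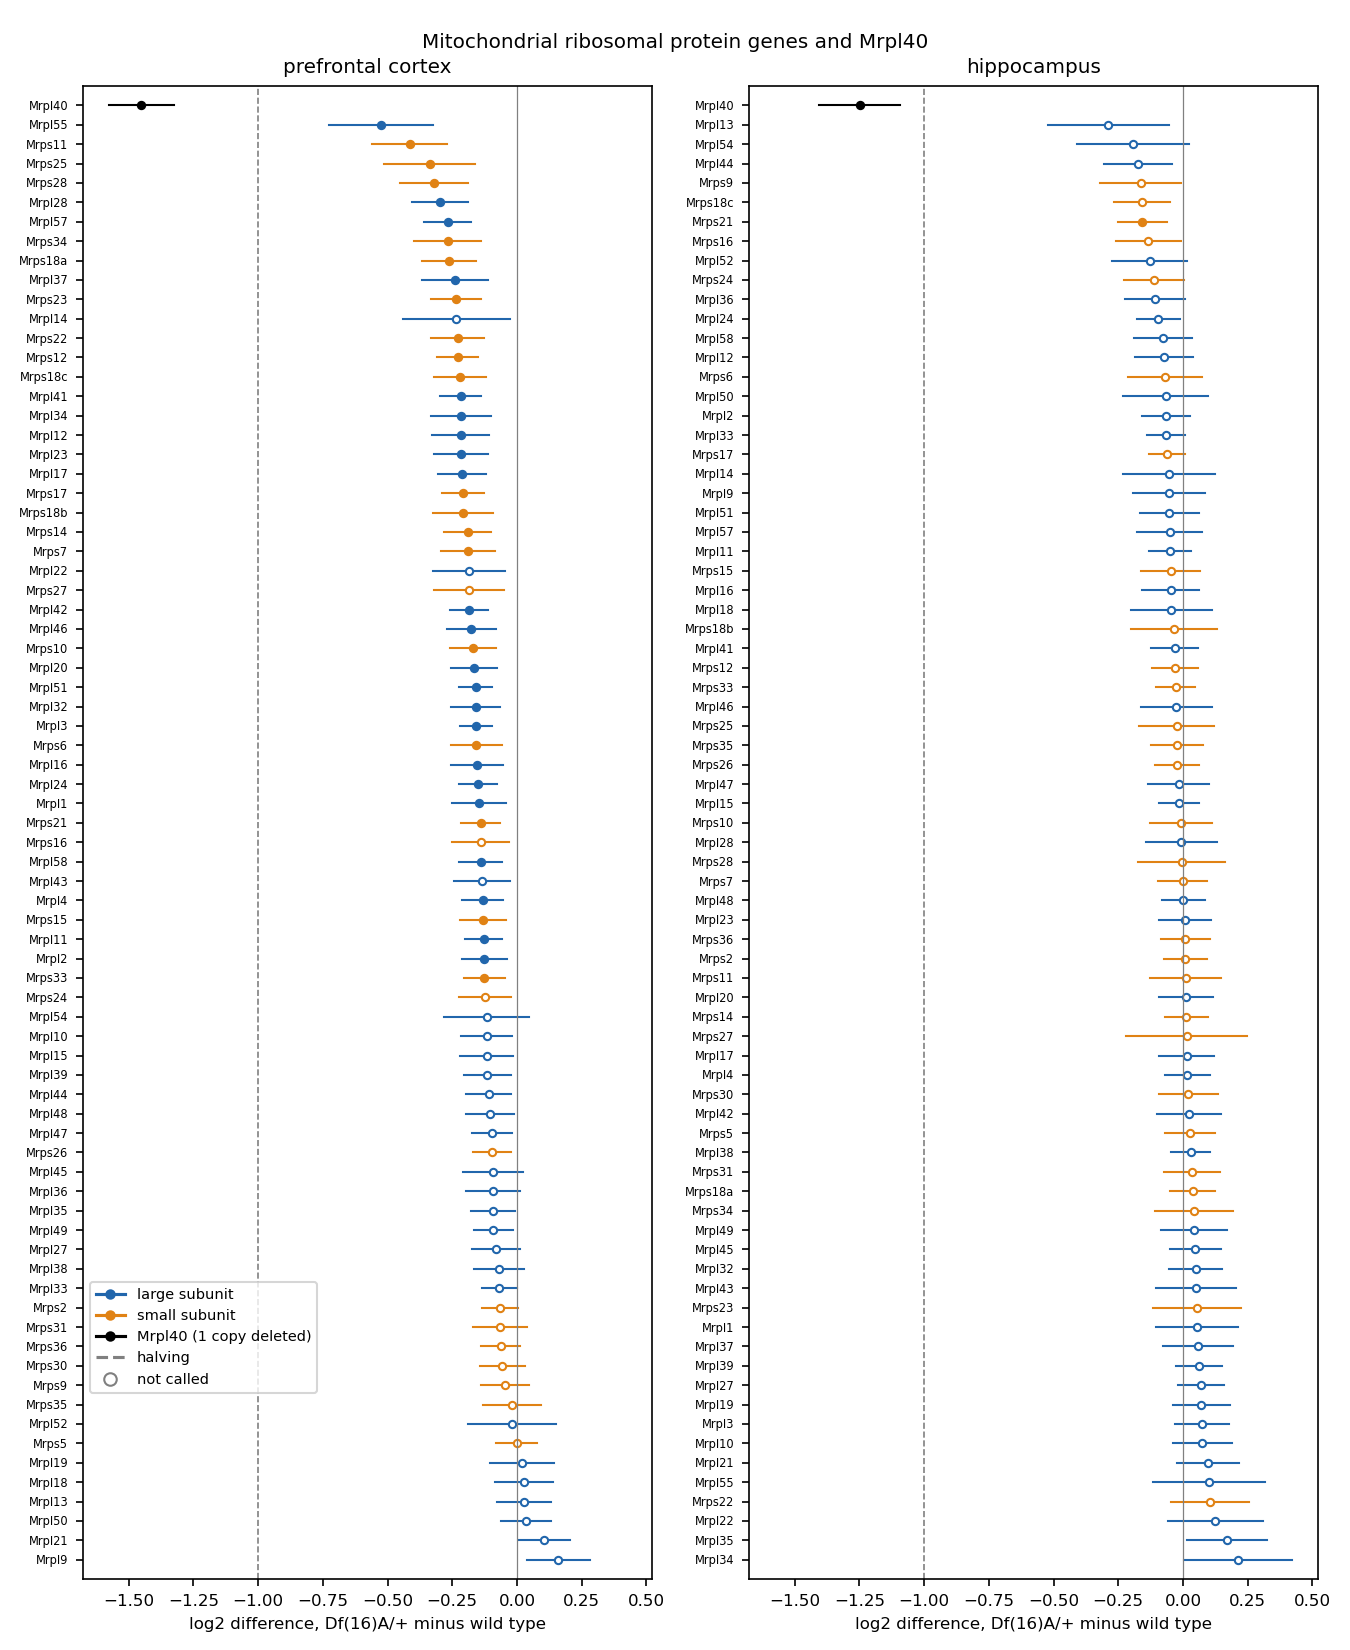
Log2 difference between Df(16)A/+ and wild type with its 95% interval for the 75 mitochondrial ribosomal protein genes and for Mrpl40, by region; filled points passed the adjusted threshold and the dashed line marks a halving. Mrpl40 lies at -1.45 and -1.25, apart from all other genes, and 40 prefrontal genes but 1 hippocampal gene are filled below 0.

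The counts changed with the technical blocks while the sizes changed less. With the hybridization run as a block 24 members were lower, with the chip lot 14, and with both 2, where 7.99%, 2.88% and 0.864% of all genes were lower. The member median was -0.14 with the run, -0.14 with the lot and -0.13 with both. Within run 4 alone 9 members were lower and their median was -0.16, where 2.54% of all genes were lower with a median of -0.06. Within lot 1 alone 4 members were lower and their median was -0.14, where 0.828% of all genes were lower with a median of -0.03. In run 4 most wild-type arrays were of lot 2 and every Df(16)A/+ array of lot 1. In lot 1 most wild-type arrays were of run 3 and most Df(16)A/+ arrays of runs 4 and 5. A fit that takes up only the run or only the lot therefore leaves the other unbalanced between the genotypes. In the prefrontal cortex 64 of 75 members lay below 0 in the fit as reported and in all of these. Mrpl57 and Mrps12 were the 2 called with run and lot together (-0.31 and -0.24, adjusted p = 0.042 for each). Leaving out 1 array gave 36 to 45 lower members. The lowest count came without Df(16)A/+ replicate 4 and the highest without wild-type replicate 3.

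Mrpl55, a large-subunit protein with a bacterial counterpart, had the largest difference. Its prefrontal signal was 7.20, 7.51 and 7.71 (lowest, median, highest) in wild type and 6.36, 7.04 and 7.32 in Df(16)A/+ mice. All 10 Df(16)A/+ arrays lay below the wild-type mean, though the groups overlapped at the edges, with the highest Df(16)A/+ array above the lowest wild-type one. The difference was -0.53 (-0.73 to -0.32; adjusted p = 0.0014), or 69.5% of wild type. It was -0.58 within run 4 (adjusted p = 0.016) and -0.56 with run and lot together (adjusted p = 0.11). A single probe set measures this gene.

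Mrps11, a protein of the platform of the small subunit, came next. Its signal was 7.11, 7.38 and 7.71 in wild type and 6.74, 6.99 and 7.14 in Df(16)A/+ mice. Only the top of the Df(16)A/+ range reached into the wild-type range. The difference was -0.41 (-0.56 to -0.27; adjusted p = 0.00064), or 75% of wild type, and within lot 1 it was -0.46 (adjusted p = 0.013).

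Mrps25, a small-subunit protein without a bacterial counterpart, had a signal of 8.07, 8.54 and 9.07 in wild type and 7.94, 8.25 and 8.34 in Df(16)A/+ mice. The wild-type arrays spread widely here, and their lowest lay inside the Df(16)A/+ range. The difference was -0.34 (-0.51 to -0.16; adjusted p = 0.0097), and with the lot as a block it was -0.16 (adjusted p = 0.34). The other Mrps25 probe set had a log2 difference of -0.06.

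Other small-subunit genes among the largest differences were Mrps28 (-0.32, 80.1% of wild type), Mrps34 (-0.27, 83.0%), Mrps18a (-0.26, 83.3%), Mrps23 (-0.24, 84.8%) and Mrps22 (-0.23, 85.3%). Mrps12, a protein of the decoding centre, was at 85.3%, and its signal was 9.98, 10.1 and 10.3 in wild type and 9.70, 9.88 and 9.99 in Df(16)A/+ mice. For Mrps12 the ranges met only at 9.98 and 9.99, and the adjusted p was 0.00057. In every one of these genes except Mrps34 all 10 Df(16)A/+ arrays lay below the wild-type mean. For Mrps34 9 of 10 did.

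In the large subunit Mrpl28 was at 81.4% of wild type (-0.30, adjusted p = 0.00085) and Mrpl37 at 84.7% (-0.24, adjusted p = 0.011). Another measured Mrpl28 probe set had a log2 difference of -0.0049, so the size for this gene depends on the probe set. Mrpl14 had a difference of -0.24 that did not pass (adjusted p = 0.10). Its signal lay near the filter, with a wild-type median of 4.05 and a single wild-type array at 4.95.

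Every Df(16)A/+ array lay below every wild-type array in 5 large-subunit genes, Mrpl57, Mrpl41, Mrpl42, Mrpl51 and Mrpl3, where 0.955% of all genes did so. Mrpl57, a short protein found only in mitochondria, had 10.3, 10.4 and 10.5 in wild type and 9.92, 10.2 and 10.3 in Df(16)A/+ mice, a difference of -0.27 (-0.36 to -0.18; adjusted p = 0.0006). Mrpl3, which lies close to the catalytic centre, had 10.6, 10.6 and 10.7 in wild type and 10.4, 10.5 and 10.5 in Df(16)A/+ mice, a difference of -0.16 (adjusted p = 0.0014). Mrpl41, Mrpl42 and Mrpl51 were at 86.0%, 88.0% and 89.5% of wild type. These differences are small but the spread between arrays was smaller still, with standard deviations of 0.05 to 0.10 within a genotype. For Mrpl51, Mrpl57 and Mrpl3 other probe sets of the gene had less change, with log2 differences up to 0.08, -0.07 and -0.02.

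**Figure D2:**
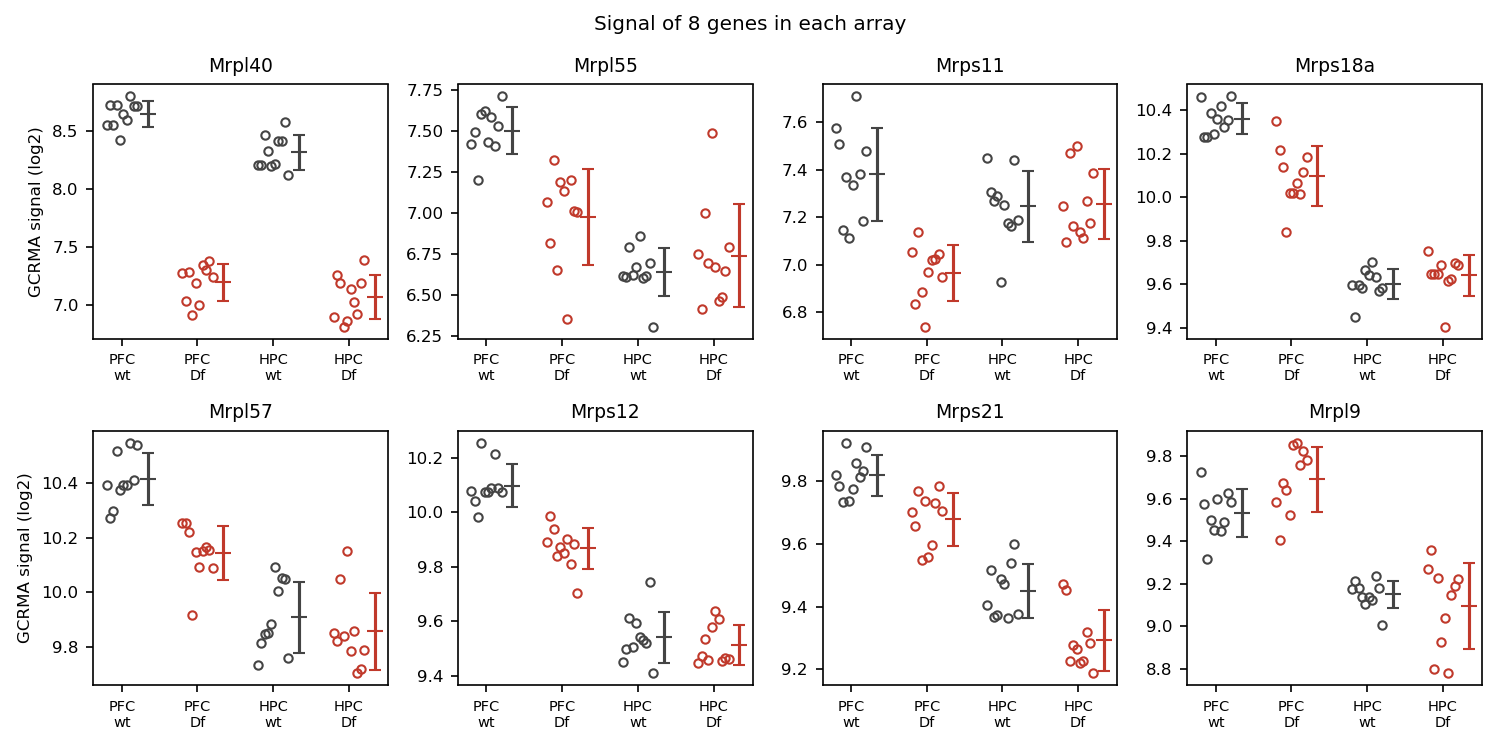
GCRMA signal (log2) of Mrpl40 and 7 mitochondrial ribosomal protein genes in each array, by region (PFC prefrontal cortex, HPC hippocampus) and genotype (wt wild type, Df Df(16)A/+); bars are the mean and SD of 10 arrays, and each panel has its own axis range. The prefrontal groups part for Mrpl40 and Mrpl57, overlap at the edges for Mrpl55, Mrps11 and Mrps12, and Mrpl9 runs the other way.

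At the other end, Mrpl9 had a prefrontal signal of 9.32, 9.54 and 9.72 in wild type and 9.41, 9.72 and 9.86 in Df(16)A/+ mice. The ranges overlapped widely and the difference of 0.16 (0.04 to 0.28) did not pass (adjusted p = 0.064). Mrpl21 had a difference of 0.11 (0.01 to 0.20; adjusted p = 0.12), and Mrps5 was at 99.9% of wild type. Mrps36 carries a ribosomal symbol but is known as a subunit of the 2-oxoglutarate dehydrogenase complex. It had -0.06 (-0.14 to 0.01; adjusted p = 0.23).

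Both subunits took part. In the large subunit 22 of 46 genes were lower in the prefrontal cortex, with a median of -0.13. In the small subunit 18 of 29 were, with a median of -0.17. Of all genes 15.6% were lower, with a median of -0.04. No small-subunit gene had a difference above 0. Taking each array's mean over the genes, relative to the wild-type mean, the Df(16)A/+ arrays stood at -0.13 ± 0.05 (SD) for the large and -0.17 ± 0.06 for the small subunit. The large minus small value was 0.04 ± 0.02 in Df(16)A/+ arrays (0.00 to 0.09) and ranged from -0.04 to 0.06 in wild type, so the ranges overlapped. With the run as a block the gap between the subunit medians was 0.01. Structures of the mammalian particle place Mrps18a and Mrps30 in the large subunit despite their symbols. Counted that way, 23 of 48 large and 17 of 27 small genes were lower.

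**Figure D3:**
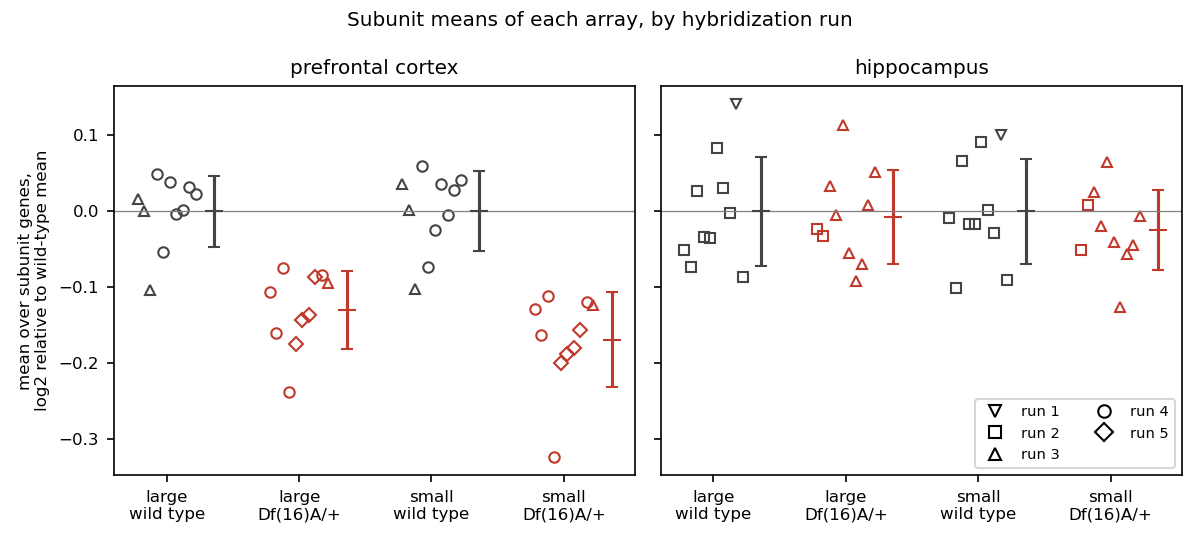
Mean over the genes of each subunit in every array, as log2 relative to the wild-type mean of the region, with the hybridization run as the symbol; bars are the mean and SD of 10 arrays. Prefrontal Df(16)A/+ arrays average -0.13 (large) and -0.17 (small), with replicate 4 lowest at -0.24 and -0.32, and the hippocampal genotypes overlap.

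Over all 75 genes the prefrontal Df(16)A/+ arrays ran from -0.27 to -0.09 and the wild-type arrays from -0.10 to 0.05, so only the ends met. The mean over all genes tested was -0.05 ± 0.04 in the same Df(16)A/+ arrays. Within run 4 the member mean was -0.15 in the 5 Df(16)A/+ and 0.01 in the 7 wild-type arrays, but chip lots differed between these genotypes. The 4 Df(16)A/+ arrays of run 5 stood at -0.15 as well. The 3' to 5' difference of the beta-actin control probe sets, a sign of RNA quality, was 1.25 ± 0.06 in Df(16)A/+ and 1.26 ± 0.08 in wild-type prefrontal arrays, and with it as a covariate 41 members were lower.

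Genes with a bacterial counterpart were lower in 28 of 47 cases (median -0.15) and those found only in mitochondria in 12 of 27 (median -0.13), with Mrps36 in neither set. Mrpl40 sits in the central protuberance, the crest of the large subunit that faces the small one. Of 7 listed neighbours there, Mrpl46 (-0.18, adjusted p = 0.012) and Mrpl58 (-0.14, adjusted p = 0.020) were lower and 5 were not called, with a median of -0.10. Mrpl58 is a peptidyl-tRNA hydrolase built into the ribosome, and its other probe set had a log2 difference of 0.13. Mrpl18, Mrpl27, Mrpl38 and Mrpl48 had 0.03, -0.08, -0.07 and -0.10, and Gadd45gip1, also known as Crif1, had -0.17 (adjusted p = 0.096). The share called lower among these neighbours was 28.6%, where 15.6% of all genes were lower, and all of them but Gadd45gip1 are among the 75 genes. Mrpl39 and Mrps6 lie on chromosome 16 too, outside the deletion, at chr16:84718281-84735244 and chr16:92058336-92112227 (GRCm38.p6). Their log2 differences were -0.11 (adjusted p = 0.069) and -0.16 (adjusted p = 0.026).

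In the hippocampus the members did not move as a group. Of 75 genes 1 was lower and 0 higher, where 1.53% of 10822 genes tested were lower and 2.08% higher. At an unadjusted p under 0.05, 7 members were lower and 2 higher, where 1017 and 1109 of all 10822 genes were. The median was -0.01, against 0.00 over all genes, and 40 of 75 differences lay below 0. Here too the 95% interval of every member excluded -1, as did that of 10773 of all 10822 genes. Of the 75 member intervals 66 included 0, beside 8696 over all genes. Simulated arrays of the same spread recovered 15% of differences of 0.15, 38.5% of differences of 0.25 and 86.5% of differences of 0.5. A difference of the prefrontal median size in a single gene was therefore mostly not detectable with these arrays. In the hippocampus the choroid plexus markers varied widely between arrays, from 5.32 to 10.6 in wild type and from 6.13 to 10.3 in Df(16)A/+ mice, and none of the 5 was called. Single markers were higher there in the neuron (Nefl, 0.20), hippocampus (Prox1, 0.27) and cortex (Fezf2, 0.21) lists, and the mean neuron marker signal was 12.26 (12.16 to 12.37) in wild type and 12.40 (12.26 to 12.57) in Df(16)A/+ arrays. Of the 5 neuron markers 4 lay above 0 and 1 below. The hippocampus and cortex lists each had 2 markers below 0 and 2 above, with medians of -0.01 and 0.01. The part of these differences in the hippocampal values was not tested.

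Mrps21, a small-subunit protein with a bacterial counterpart, was the gene called in the hippocampus. Its signal there was 9.36, 9.44 and 9.60 in wild type and 9.19, 9.27 and 9.47 in Df(16)A/+ mice. The 2 Df(16)A/+ arrays hybridized in run 2, at 9.47 and 9.45, lay inside the wild-type range, and the other 8, all of run 3, lay below every wild-type array. The difference was -0.16 (-0.25 to -0.06; adjusted p = 0.042), or 89.7% of wild type, but with the run as a block it was 0.03 (adjusted p = 1.00). Run 3 held no wild-type hippocampal array, so run and genotype cannot be told apart for those 8. In the prefrontal cortex the same gene had -0.14 (adjusted p = 0.013). It was the 1 member called lower in both regions. The hippocampal count was 0 without any 1 of wild-type replicates 2, 4, 5, 6, 8, 9 and 10 or of Df(16)A/+ replicates 3, 4, 5, 6, 7, 9 and 10, was 2 without replicate 1 of either genotype, and was 3 without Df(16)A/+ replicate 2.

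The largest hippocampal differences were in Mrpl13 (-0.29, -0.52 to -0.06; adjusted p = 0.12) and Mrpl34 (0.21, 0.00 to 0.42; adjusted p = 0.20), and neither passed. The 3 Mrpl13 probe sets ran from -0.29 to 0.02, so they differed from each other by 0.31. Mrpl3 and Mrpl28 probe sets differed by 0.36 and 0.35 in the hippocampus. Mrpl54, Mrpl44, Mrps9 and Mrps18c had -0.19, -0.17, -0.16 and -0.16, and Mrpl35 and Mrpl22 had 0.17 and 0.12. None of them passed, and for Mrps18c the adjusted p was 0.072. By array, the member mean was -0.11 to 0.09 in Df(16)A/+ and -0.09 to 0.13 in wild-type hippocampus.

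**Figure D4:**
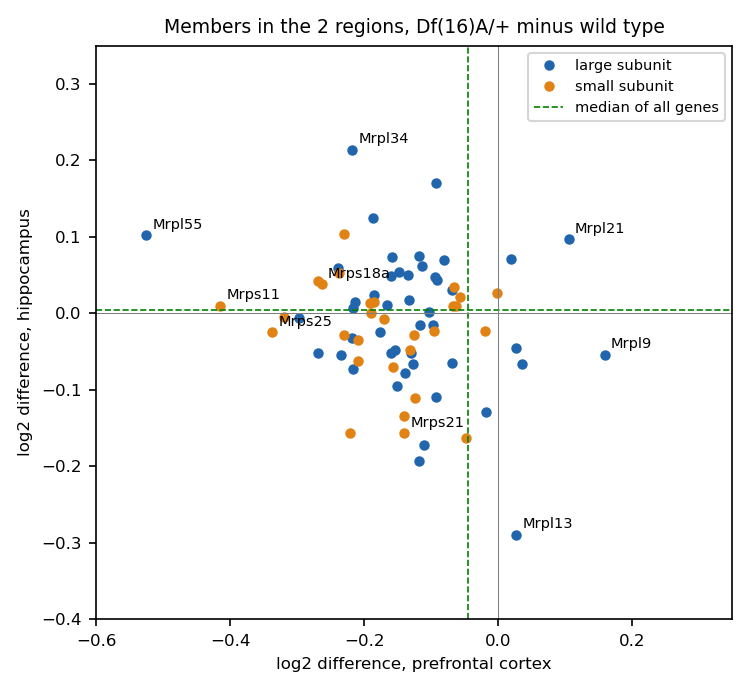
Log2 difference in the prefrontal cortex (horizontal) against that in the hippocampus (vertical) for the 75 genes, by subunit; dashed lines mark the median of all genes tested, -0.04 and 0.00. Most points lie left of the vertical line and are spread on both sides of the horizontal one, with Mrpl55 at -0.53 and 0.10.

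The size in one region did not go with the size in the other: over the 75 genes Pearson's r was -0.20 and Spearman's rho -0.12, given as a description, since the genes share arrays. The regional difference was tested as an interaction over all 40 arrays. Of 75 genes 8 were lower in the prefrontal cortex relative to the hippocampus and 0 higher, where 2.68% of 11325 genes were lower and 0.203% higher. Mrps18a had a regional difference of -0.30 (-0.43 to -0.17; adjusted p = 0.016), Mrps11 -0.42 (adjusted p = 0.021), Mrpl55 -0.63 (adjusted p = 0.023), Mrpl3 -0.23 (adjusted p = 0.029) and Mrps22 -0.33 (adjusted p = 0.037). Mrpl34, Mrps12 and Mrps14 had -0.43, -0.20 and -0.20, with adjusted p of 0.042, 0.042 and 0.046. Mrps18a shows the pattern: its prefrontal signal was 10.3, 10.4 and 10.5 in wild type and 9.84, 10.1 and 10.3 in Df(16)A/+ mice, while in the hippocampus it was 9.45, 9.60 and 9.70 against 9.40, 9.65 and 9.75. The 2 genotypes overlapped fully in the hippocampus. In the prefrontal cortex only Df(16)A/+ replicate 1, at 10.35, lay inside the wild-type range, just under its median of 10.36. With the run as a block 0 members were called, and 12 had an unadjusted p under 0.05 on the lower side. Leaving out 1 array gave 4 to 18 called members. In the hippocampus the count was 18, 15 and 14 without Df(16)A/+ replicates 1, 2 and 8, and 17 and 13 without wild-type replicates 9 and 6. In the prefrontal cortex it was 13 without wild-type replicate 3 and 12 without Df(16)A/+ replicate 1 or 10. It was 4 without Df(16)A/+ hippocampal replicate 3 or 5, Df(16)A/+ prefrontal replicate 4 or 5, wild-type hippocampal replicate 2 or 5, or wild-type prefrontal replicate 1, 6, 9 or 10. It was 5 without Df(16)A/+ hippocampal replicate 4, Df(16)A/+ prefrontal replicate 7, wild-type hippocampal replicate 4 or 10, or wild-type prefrontal replicate 4 or 8.

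Whether the members track Mrpl40 from mouse to mouse was asked among arrays of 1 genotype, where the deletion sets no difference. A gene that followed Mrpl40 fully would have a slope of 1 on the log2 scale if Mrpl40 were measured without error. With limma no member was called in either region, and no gene at all was (0% of 10990 and of 10821 genes). At an unadjusted p under 0.05, 22 of 75 members had a positive prefrontal slope (29.3%, beside 8.05% of all genes) and 5 of 75 a positive hippocampal slope (6.67%, beside 5.66%). The median slope was 0.26 and 0.12, beside 0.12 and 0.04 over all genes. The 95% interval lay wholly below 1 for 70 of 75 prefrontal and 74 of 75 hippocampal members. Mrpl40 was read by 1 probe set, and error in its signal lowers every slope. These counts therefore cannot show that a member does not follow Mrpl40.

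Mrpl37, a large-subunit protein found only in mitochondria, had the smallest p in the prefrontal cortex, with a slope of 0.65 (0.26 to 1.04; adjusted p = 0.48). Mrps21, Mrpl58, Mrpl42 and Mrps18c followed with slopes of 0.36, 0.39, 0.34 and 0.45. In the hippocampus Mrpl32 had 0.40 (0.13 to 0.67; adjusted p = 0.53), and Mrpl37 and Mrpl58 had 0.45 and 0.37. The prefrontal values moved little with the run as a block, to 24 of 75 positive slopes at an unadjusted p under 0.05 and a median of 0.25. With each array centred on its median the prefrontal count was 29 of 75 (38.7%), beside 11.8% of all genes. The prefrontal median slopes were then 0.35 and 0.21. The hippocampal values depended more on the setting. With the run as a block 2 of 75 members (2.67%) had such a slope, beside 4.30% of all genes, and the median was 0.06. After centring each array on its median it was 30 of 75 (40%), beside 26.6% of all genes, with medians of 0.31 and 0.26.

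**Figure D5:**
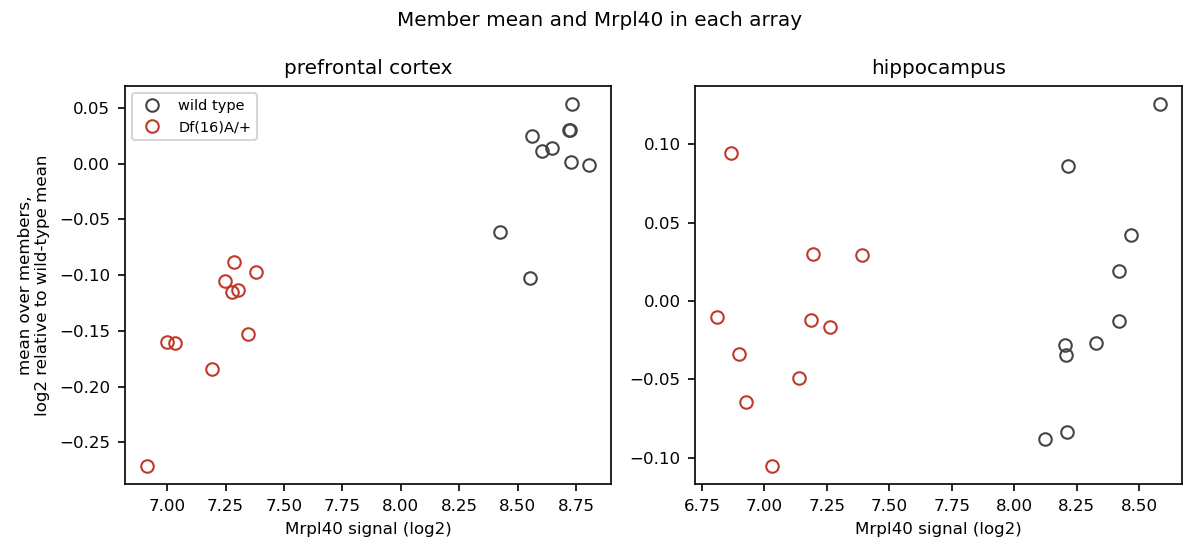
Mean over the 75 genes in each array (log2 relative to the wild-type mean of the region) against the Mrpl40 signal (log2) of the same array, by genotype. The genotypes part along the Mrpl40 axis in both regions but along the vertical axis only in the prefrontal cortex, where Df(16)A/+ replicate 4 has both the lowest Mrpl40 signal, 6.91, and the lowest member mean, -0.27.

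Other genes of mitochondrial translation gave a context for the prefrontal result. The counts in these short lists are read against the 15.6% of all genes that were lower. Of 4 measured ribosomal proteins with other symbols 2 were lower, Chchd1 (88.0% of wild type) and Dap3, a GTP-binding protein of the small subunit (86.1%). Translation and assembly factors were lower at a share below that of all genes: 1 of 12 translation factors (8.33%), the membrane insertase Oxa1l (77.5% of wild type), and 2 of 15 assembly factors (13.3%), the GTPase Mtg1 (83.1%) and Malsu1 (85.0%), which both act on the large subunit. Among 13 genes of mitochondrial transcription and RNA handling 4 were lower (30.8%), namely Polrmt, the RNA polymerase (82.4%), Hsd17b10, a subunit of the tRNA-processing enzyme (82.9%), Tfam, which packages mitochondrial DNA (88.1%), and Slirp (90.2%). Tfb2m, a transcription factor, was higher (112% of wild type, adjusted p = 0.014). None of 16 genes that charge mitochondrial tRNAs (synthetases, and the amidotransferase subunits Gatb, Gatc and Qrsl1) and none of 7 regulators of mitochondrial biogenesis was called by limma, with medians of -0.05 and 0.00. At an unadjusted p under 0.05 there were 3 lower genes of tRNA charging and 0 regulators, where 3007 of all 10991 genes were lower. Over all 16 measured probe sets of the regulators 1 was higher, where 1159 of 19206 probe sets of all genes were. Ppargc1a had -0.08 (adjusted p = 0.16) and Gabpa 0.11 (adjusted p = 0.19). In the hippocampus none of these lists had a called gene by its highest probe set. Over all 17 measured probe sets of the regulators 2 were higher there, where 1025 of 18827 probe sets of all genes were.

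Since many members moved together in the prefrontal cortex, their promoter sequences were searched for the letters bound by 3 factors known for nuclear genes of mitochondria. These were NRF1 (GCGCA, any 1 base, then GCGC), GABPA (CCGGAAG) and YY1 (AANATGGCG), on both strands, in windows of 250 bases before to 50 after the annotated start (RefSeq, GRCm38.p6). NRF1 and YY1 letters do not contain those of GABPA, but matches may lie side by side. At least 1 of the motifs was found for 40 of the 66 members with a window (60.6%), beside 32.8% of 8933 measured genes and 15.9% of 27025 genes with a window. The share was 51.4% of 37 members called lower in the prefrontal cortex and 72.4% of 29 not called. GABPA letters were in 37.9% of member genes, NRF1 letters in 18.2% and YY1 letters in 16.7%. The Mrpl40 window held none.

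The windows of 4 genes are shown, with capitals for the matches: Mrpl40, the deleted gene (chr16:18876588-18876887, minus strand), Mrpl55, the gene with the largest difference (chr11:59202236-59202535, plus strand), Mrps18a, the gene with the smallest p in the regional comparison (chr17:46110754-46111053, plus strand), and Mrps21, the gene called in both regions (chr3:95871465-95871764, minus strand). In Mrps18a the capitals are a GABPA and then a YY1 match, and in Mrps21 an NRF1 and then a GABPA match, both on the opposite strand. A match is a run of letters and was not tested as a binding site.
Mrpl40: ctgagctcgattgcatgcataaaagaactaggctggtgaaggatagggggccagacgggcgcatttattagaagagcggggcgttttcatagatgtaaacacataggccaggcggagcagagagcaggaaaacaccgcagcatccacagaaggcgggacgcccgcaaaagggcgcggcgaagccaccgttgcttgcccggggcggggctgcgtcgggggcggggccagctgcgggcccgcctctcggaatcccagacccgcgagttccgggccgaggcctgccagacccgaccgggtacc
Mrpl55: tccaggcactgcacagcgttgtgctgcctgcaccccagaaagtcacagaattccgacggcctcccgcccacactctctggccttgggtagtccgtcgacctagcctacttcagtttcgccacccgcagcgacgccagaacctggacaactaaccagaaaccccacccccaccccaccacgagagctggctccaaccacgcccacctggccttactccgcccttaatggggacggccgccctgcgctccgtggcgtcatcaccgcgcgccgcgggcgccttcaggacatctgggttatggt
Mrps18a: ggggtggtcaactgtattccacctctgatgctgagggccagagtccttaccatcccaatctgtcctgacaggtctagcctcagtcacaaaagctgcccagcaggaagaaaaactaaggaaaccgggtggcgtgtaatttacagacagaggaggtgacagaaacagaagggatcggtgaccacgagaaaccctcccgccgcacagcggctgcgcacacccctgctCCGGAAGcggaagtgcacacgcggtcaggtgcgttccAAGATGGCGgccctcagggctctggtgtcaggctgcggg
Mrps21: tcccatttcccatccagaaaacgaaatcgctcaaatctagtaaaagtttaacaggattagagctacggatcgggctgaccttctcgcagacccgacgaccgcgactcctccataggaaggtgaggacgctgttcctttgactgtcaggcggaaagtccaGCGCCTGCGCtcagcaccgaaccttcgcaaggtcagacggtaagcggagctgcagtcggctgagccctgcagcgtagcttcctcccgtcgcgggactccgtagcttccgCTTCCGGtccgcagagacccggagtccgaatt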

How the data were processed

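Biotin-labelled RNA (Trizol, then RNeasy) was hybridized to 40 Affymetrix Mouse430_2 arrays, and groups were taken from the sample titles. The deposited values are log2 signals that the authors made with GCRMA, per the submitters' processing notes. Its version and settings, and which arrays were normalized jointly, were not given in the sources used here. Chip lots, fluidics stations and hybridization times came from the deposited array records. Runs were formed here from the gaps between successive hybridization times. The mice and the arrays are described as biological replicates in the labels, and both regions came from the same 20 animals, though the labels do not say whether equal replicate numbers mark the same animal; only the alternatives with a replicate block treat them so.

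Genes were named from the platform annotation supplied for this work (34945 with 1 gene, 932 with several, 9160 with none, 64 controls left out). Separately by region, limma 3.58.1 (R 4.3.3; functions lmFit, eBayes) compared 10 with 10 arrays in a two-sided test without covariates, over the 21140 prefrontal and 20648 hippocampal probe sets above 4 in at least 10 arrays, with Benjamini-Hochberg adjustment over all of them at 0.05. "Called", "lower" and "higher" refer to that threshold. For a gene with several probe sets the one with the highest mean was used. The interaction contrasted the 4 group means in a fit of all arrays. The slope on Mrpl40 was fitted with genotype in the model and Mrpl40 centred within genotype. Correlated blocks used statmod (version 1.5.0), and motif searches and figures used Python 3.11.15 with pandas 2.3.3 and matplotlib 3.10.9. Promoter windows and coordinates came from RefSeq (GRCm38.p6), and 9 members had no window.

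The members and lists were chosen with earlier results of these data known. Named genes were Mrpl40, the 12 largest differences per region, members called in the hippocampus, the 5 smallest p of the interaction and of each slope, the central protuberance list, genes whose probe sets differ by over 0.3, and the 3 smallest p of each other list. Genes named beyond this rule (those whose groups do not overlap, the other interaction calls, the members called with blocks, Mrps12, Mrpl9, Mrpl21, Mrps5, Mrps36, Mrpl39, Mrps6 and Mrps30) were chosen after their values were seen. The alternatives were other filters, scalings, variance models, blocks, probe sets and samples, and counting Mrps18a and Mrps30 as large was added after the data were seen.

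Precision is limited by how many arrays there are. The fits were tested on simulated data with the real spread, with 200 changed probe sets per size. Differences of 0.15, 0.25 and 0.5 were recovered in 22%, 62% and 95% of cases in the prefrontal cortex and 15%, 38.5% and 86.5% in the hippocampus. Slopes of 1 were recovered in 64% and 61%, on a simulated covariate without measurement error, which the Mrpl40 signal does not offer.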

Additional observations from a re-analysis of the deposited data

Results flagged for a closer look

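In 16 of 134 groups of 10 arrays that were looked at, 1 array stood apart from the other 9 by more than Dixon's limit, and chance gives about 1 in 20. In the prefrontal cortex Df(16)A/+ replicate 4 was the low array for the mean over all members (-0.27, next -0.18), for the small-subunit mean (-0.32, next -0.20), for Mrpl57 (9.92, next 10.1), for Mrps18c (9.51, next 9.78) and for Mrps23 (8.49, next 8.73). Without it 36 members were called lower in place of 40. Df(16)A/+ replicate 5 was low for Mrpl51 (11.4, next 11.5). Among wild-type prefrontal arrays replicate 10 was high for Mrpl14 (4.95, next 4.35) and replicate 3 low for Mrps28 (7.98, next 8.21).

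In the hippocampus wild-type replicate 10 was low for Mrpl55 (6.31) and Mrps22 (8.65), replicate 1 low for Mrpl44 (9.23), replicate 2 low for Mrps18a (9.45) and replicate 9 high for Mrpl35 (8.64). Among Df(16)A/+ arrays replicate 6 was low for Mrps18a (9.40), replicate 5 high for Mrpl51 (11.3) and replicate 1 high for Mrpl54 (7.81).

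The genotype difference was not the same in both regions by the interaction test for 8 members. The prefrontal minus hippocampal values were -0.30 for Mrps18a, -0.42 for Mrps11, -0.63 for Mrpl55, -0.23 for Mrpl3, -0.33 for Mrps22, -0.43 for Mrpl34, -0.20 for Mrps12 and -0.20 for Mrps14, and 0 of them were called with the run as a block.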

How the results depend on the processing

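The direction of the prefrontal shift held in every alternative run, with member medians between -0.16 and -0.12, while the counts did not. Members called lower fell from 40 to 24 with the run block, to 14 with the lot block and to 2 with both blocks. They fell to 9 within run 4 and to 4 within lot 1. The share of all genes called lower was 15.6% as reported and 7.99%, 2.88%, 0.864%, 2.54% and 0.828% in these settings. The fits within run 4 and within lot 1 have fewer arrays, and each leaves the other batch unbalanced between the genotypes. With the fluidics station as a block 30 members were lower, beside 9.13% of all genes. The other prefrontal settings gave 33 to 44, beside 7.49% to 19.5% of all genes. One member was called higher (1 in place of 0) after quantile normalization, with array weights and with the beta-actin covariate. Leaving out 1 array gave 0 to 1 higher members in the prefrontal cortex, 0 to 3 lower ones in the hippocampus and 4 to 18 in the interaction.

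In the hippocampus the count of 1 became 0 without a filter, after median centring, with the replicate, run, lot or both blocks, within 1 run, within 1 lot and with the beta-actin covariate. It became 4 after quantile normalization and in 1 fit of all 40 arrays, and 2 with the mean over probe sets. In these settings 3.19%, 4.85% and 1.48% of all genes were lower. Median centring took the hippocampal median of the members from -0.01 to 0.04 and that of all genes from 0.00 to 0.05, and quantile normalization took the members to -0.05. The interaction count of 8 became 4 without a filter and after quantile normalization, 17 after median centring and 0 with the run block. Of all genes 2.68% were lower as reported, and 0.962%, 0.927%, 5.33% and 0.0177% in these settings. The gap between the subunit medians, 0.04 as reported, was 0.0098 with the run block, 0.013 with the station block, 0.0072 within 1 run and 0.013 with the lowest probe set.

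Between the regions, 3 of 10 same-numbered wild-type pairs and 5 of 10 mutant pairs had correlated deviations over 0.1. Between the genotypes, which share no animal, 2 of 10 prefrontal and 4 of 10 hippocampal pairs did. The limit of 0.1 was not tested on known pairs, so whether equal replicate numbers mark the same animal stays undecided. With the replicate block 35 members were lower in the prefrontal cortex (median -0.14) and 0 in the hippocampus. Of all genes 12.4% and 1.4% were lower there. In the interaction 11 members were called, beside 3.17% of all genes lower, with genotype and replicate number together as a random block. That fit treats equal numbers as the same animal, and the estimated correlation was 0.022. Mrpl40 was called in every alternative listed, from -1.49 to -1.43 in the prefrontal cortex and from -1.30 to -1.20 in the hippocampus. With the lowest probe set Mrpl58 turned to 0.13 and Mrpl51 to 0.032 in the prefrontal cortex (adjusted p = 0.44 and 0.88). Mrps21 turned to 0.029 in the hippocampus with the run block, with run and lot blocks and within 1 run. The cause was not tested. The planned repeat with another Mrpl40 probe set was not run, because 1 Mrpl40 probe set exists.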
